A study of Mus musculus with 10 samples.

Results

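The 8 transcription factor genes followed here mark organ fields along the embryonic gut, and were measured through the mesenchyme of the mouse embryonic pancreas: *Nkx2-5*, *Tlx1*, *Barx1*, *Nkx3-2*, *Tcf21*, *Meis1*, *Meis2* and *Wt1*. The genes were listed by name, and all 8 were present among the 27716 genes shared by every matrix. Cells were sorted into 3 classes by other genes only. Mesothelial cells were those with at least 2 unique molecular identifiers (UMIs, one per captured transcript) of *Upk3b*, which encodes a surface protein of the mesothelium. Mesenchymal cells had at least 3 UMIs in the sum of the collagen genes *Col3a1*, *Col1a1* and *Col1a2* and fewer than 2 UMIs of *Upk3b*. Of 57982 barcodes kept, 16447 were mesenchymal (28.4%), 5498 were mesothelial (9.48%) and 36037 were other cells.

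The cells came from 8 pools of embryonic pancreata, each captured by droplet and sequenced with 10x Chromium kits. In all, 4 Swiss Webster pools were made with the v1 kit from all live cells (1 each at E12.5 and E17.5, and batches 1 and 2 at E14.5), and 3 Swiss Webster pools were made with the v2 kit after cells carrying CD140a, the protein of *Pdgfra*, had been sorted away (1 at each of the same 3 stages). The last pool was an E14.5 v2-kit library from C57BL/6J *Fev-Cre; ROSA26mTmG* embryos, in which Cre driven by *Fev* regulatory sequence switches cells from membrane tdTomato to membrane GFP; GFP-positive and tdTomato-positive cells were sorted and joined, without CD140a depletion. Each pool held the pancreata of 1 litter, except v1 E12.5, which held 2 litters. A pool is therefore 1 sample, and embryo sex and single embryos cannot be told apart. The p-values below measure the spread between these pools. In the stage comparisons only v1 E14.5 had 2 pools of 1 kit and stage. The spread there therefore also holds any difference between the kits in the change with stage. Among the Swiss Webster pools the v2 kit and the CD140a sort cannot be told apart. By the paper's methods the sequencer and the Cell Ranger version also changed with the kit, in all 8 pools. Dissociation was longer at later stages in the v1 pools, and the methods state that the v2 pools were dissociated in the same way. The v1 pools of E12.5, E14.5 batch 2 and E17.5 are labelled as 1 batch, and batch 1 held E14.5 only. By the methods the 3 CD140a-depleted pools were each made on a different day, so stage and day cannot be told apart among them.

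Among the 8 genes, 6 are homeobox genes. *Nkx2-5* and *Tlx1* are required for the spleen, which arises in mesoderm beside the dorsal pancreas, and *Barx1* is a regulator of stomach mesenchyme, though not of that alone. *Nkx3-2* (also called Bapx1) acts in splanchnic mesoderm and is needed to keep spleen and pancreas apart. *Meis1* and *Meis2* encode homeodomain proteins of the TALE class, which bind DNA together with PBX partners and are used across many organ fields. The other two are of other families: *Tcf21* encodes a basic helix-loop-helix factor of visceral mesoderm, and *Wt1* a zinc finger factor of the mesothelium and its derivatives. Because several of these factors set the identity of neighbouring organs, a cell that holds more than 1 of them is of interest in tissue dissected from this region.

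On GRCm38 *Nkx2-5* (ENSMUSG00000015579) lies at chr17:26838664-26845009, *Tlx1* (ENSMUSG00000025215) at chr19:45150680-45156943 and *Barx1* (ENSMUSG00000021381) at chr13:48662998-48666507. *Nkx3-2* (ENSMUSG00000049691) lies at chr5:41761483-41764501 and *Tcf21* (ENSMUSG00000045680) at chr10:22817281-22820174. *Meis1* (ENSMUSG00000020160) spans chr11:18879817-19018985, *Meis2* (ENSMUSG00000027210) chr2:115863064-116065839 and *Wt1* (ENSMUSG00000016458) chr2:105126529-105173616. Annotated transcripts on the opposite strand overlap *Tlx1* (Tlx1os), *Tcf21* (Gm10824) and *Meis1* (Gm16140 and Gm16141), 3 further annotated genes overlap *Meis1* on its own strand (Gm37818, 2900018N21Rik and 2610001A08Rik), and the sources used here do not state how strand was used in counting.

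Promoter sequences of *Nkx2-5*, *Tlx1* and *Barx1*, whose sharing of cells is described below, are shown. They are RefSeq promoter windows on build GRCm38.p6, cut back to the bases outside every annotated exon of the gene and read 5′ to 3′ on the gene's strand: chr17:26841609-26841815 (minus strand), chr19:45150465-45150679 (plus strand) and chr13:48662786-48662997 (plus strand). The stretches of *Tlx1* and *Barx1* lie before the annotated gene, whereas that of *Nkx2-5* lies before the RefSeq start but inside the gene span given above, in an intron of a longer annotated transcript. Capitals mark a match to TGACAG, the core bound by MEIS proteins, or its reverse complement CTGTCA.
*Nkx2-5*: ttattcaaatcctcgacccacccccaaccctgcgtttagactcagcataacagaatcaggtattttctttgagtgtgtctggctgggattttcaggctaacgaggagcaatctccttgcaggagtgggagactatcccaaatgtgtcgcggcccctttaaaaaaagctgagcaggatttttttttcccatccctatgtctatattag
*Tlx1*: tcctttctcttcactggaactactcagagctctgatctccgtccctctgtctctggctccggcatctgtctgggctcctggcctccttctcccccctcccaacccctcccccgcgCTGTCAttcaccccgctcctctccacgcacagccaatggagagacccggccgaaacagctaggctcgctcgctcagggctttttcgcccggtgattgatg
*Barx1*: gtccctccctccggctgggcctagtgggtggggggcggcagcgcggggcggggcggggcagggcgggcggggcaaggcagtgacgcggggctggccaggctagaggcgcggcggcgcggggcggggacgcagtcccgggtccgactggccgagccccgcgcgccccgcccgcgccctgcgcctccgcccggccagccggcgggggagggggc
Over the whole 250 bases before the start, *Nkx2-5*, *Tlx1* and *Nkx3-2* each held 1 match to TGACAG on either strand, those of *Nkx2-5* and *Nkx3-2* lying in bases that an annotated transcript of the gene holds as exon and that are not shown, and *Barx1*, *Tcf21*, *Meis1* and *Meis2* held none. Of all 32851 promoters of this length, 15.9% held at least 1 such match. AAGTG, the core bound by NK2 proteins, or its reverse complement CACTT was found once each before *Nkx3-2* and *Meis2* and in 40.7% of all promoters. For *Wt1* the source used held no promoter sequence, so none was searched. A match is a description of letters only.

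Each well held from 15671934 to 127151679 UMIs over all its barcodes, and the v2 E17.5 library joined 2 wells, of 102656012 and 94137230 UMIs. Median UMIs per mesenchymal cell ran from 2527 in v1 E14.5 batch 1 to 9687.5 in v2 E17.5, so shares of cells are given after each cell had been thinned at random to 2000 UMIs, which kept 15497 mesenchymal and 5489 mesothelial cells and left out the shallower ones. Haemoglobin genes took from 0.0128% of UMIs in the *Fev-Cre* library to 60.9% in v1 E17.5. Any 2 libraries of 1 kit shared 19 to 156 barcodes, at most 1.79% of the smaller. Cells of the 2 classes that also met an epithelial, endothelial, immune or neural marker rule are called mixed and may be doublets. They made up 13.0% of mesenchymal and 24.1% of mesothelial cells. For mesenchymal cells the library values ran from 1.09% in v1 E12.5 to 38.7% in v2 E17.5. Mesothelial cells that also met the collagen threshold are not counted as mixed for it. Doublets of a mesenchymal with a mesothelial cell, or of 2 cells of 1 class, are therefore not seen by this count. Checked against markers that the rules did not use, the 7 mesenchyme genes *Vim*, *Pdgfra*, *Pdgfrb*, *Dcn*, *Lum*, *Col6a1* and *Sparc* were all called higher in mesenchymal than in other cells. Of 6 tested mesothelial genes 4 were called higher in mesothelial than in mesenchymal cells. *Pdgfra* itself stood at 35.9 to 57.4 CPM (counts per 1000000 UMIs) in v1 mesenchymal cells and 54.3 in the *Fev-Cre* library, but at 2.59 to 5.76 in the 3 CD140a-depleted libraries, whose mesenchymal cells are those that the sort left behind.

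*Nkx2-5* was a gene of few cells: 2328 UMIs in 1620 of all kept cells. Its level in mesenchymal cells was 59.1 CPM in v1 E12.5, 24.5 and 22.6 in v1 E14.5 batches 1 and 2, 7.66 in v1 E17.5, 12.1, 8.63 and 6.40 in the v2 libraries by stage, and 7.70 in the *Fev-Cre* library. In mesothelial cells the same libraries gave 8.38, 2.25, 4.89, 5.28, 2.60, 1.56, 1.08 and 1.46 CPM. The mesenchymal value was the higher in each of the 8 libraries, though in v1 E17.5 the mesothelial value rested on a single UMI, whose exact Poisson interval of 0.134 to 29.4 CPM spans the mesenchymal value. At 2000 UMIs per cell, *Nkx2-5* was found in 8.67% of mesenchymal cells in v1 E12.5 and in 1.32% to 4.27% in the other 7 libraries. For comparison, it was found in 0% of endothelial cells in all 8 libraries and in a median of 0% and at most 0.153% of epithelial cells at the same depth. Without thinning the mesenchymal shares were 1.89% to 17.1%.

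*Tlx1* had 1663 UMIs in 1393 cells. In mesenchymal cells it was at 35.2 CPM in v1 E12.5, 28.4 and 20.1 in the v1 E14.5 batches, 7.14 in v1 E17.5, 5.07, 3.02 and 1.60 in the v2 libraries in order of stage, and 14.2 in the *Fev-Cre* library. The 3 CD140a-depleted libraries were the 3 lowest. In mesothelial cells *Tlx1* reached at most 4.19 CPM, in v1 E12.5, and was not detected in v1 E17.5 and v2 E17.5, where a count of 0 allows up to 15.8 and 0.141 CPM (the level of 3 UMIs). It was found in 0.524% to 6.29% of mesenchymal cells at 2000 UMIs and in 1.58% to 13.2% without thinning. The median share of endothelial cells with *Tlx1* was 0%, and it was held by 1 of 22 endothelial cells of the *Fev-Cre* library.

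*Barx1* was more widespread, with 22243 UMIs. Mesenchymal cells held 146 CPM in v1 E12.5, 158 and 180 in the v1 E14.5 batches, 54.4 in v1 E17.5, 155, 80.7 and 9.44 in the v2 libraries from the earliest stage to the latest, and 92.1 in the *Fev-Cre* library. Mesothelial cells held 268, 305, 344, 259, 195, 136, 66.4 and 204 CPM in the same order. The mesothelial value was the higher in each of the 8 libraries, and both E17.5 libraries had the lowest mesenchymal values of their kit. At 2000 UMIs *Barx1* was found in 1.76% to 30.8% of mesenchymal and 12.4% to 45.5% of mesothelial cells, against a median of 0.265% and at most 1.32% of epithelial cells. Without thinning the shares were 7.39% to 65.7% of mesenchymal and 52.4% to 82.5% of mesothelial cells.

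*Nkx3-2* was at the edge of detection. Only 95 UMIs were found in the whole series, 54 in mesenchymal, 3 in mesothelial and 38 in other cells, and its highest mesenchymal level was 1.50 CPM in v1 E14.5 batch 1. Mesenchymal cells of v1 E17.5, v2 E14.5 and v2 E17.5 had none, which allows up to 0.793, 0.647 and 0.480 CPM. It did not pass the filter on low counts in any of the 6 comparisons below, and no pair with it could be counted.

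*Tcf21* divided the libraries by kit. In mesenchymal cells it stood at 600 CPM in v1 E12.5, 288 and 393 in the v1 E14.5 batches and 269 in v1 E17.5, but at 23.9, 17.9 and 20.2 in the 3 v2 stages and at 49.4 in the *Fev-Cre* library. Every v1 value was above every v2-kit value, by over 5 times between the lowest of one kit and the highest of the other. *Pdgfra* divided them otherwise, since it was low in the CD140a-depleted libraries but as high in the *Fev-Cre* library as in the v1 libraries, as the plot of both genes shows. For *Tcf21* the kit cannot be told apart from the CD140a sort in 3 of the 4 v2-kit libraries, nor from the strain and the other sort in the *Fev-Cre* library. Nor can it be told apart from the sequencer and the Cell Ranger version, which by the paper's methods changed with the kit. The list of genes counted differed as well, with 27775 genes in v1 and 27998 in v2. In mesothelial cells *Tcf21* ran from 2.35 CPM in v2 E17.5 to 130 in v1 E12.5, with a median of 6.38. At 2000 UMIs it was found in 37.4% to 61.2% of mesenchymal cells in the v1 libraries and in 3.84% to 10.3% in the v2-kit libraries, and without thinning in 45.9% to 81.1% and 13.3% to 29.1%.

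**Figure D1:**
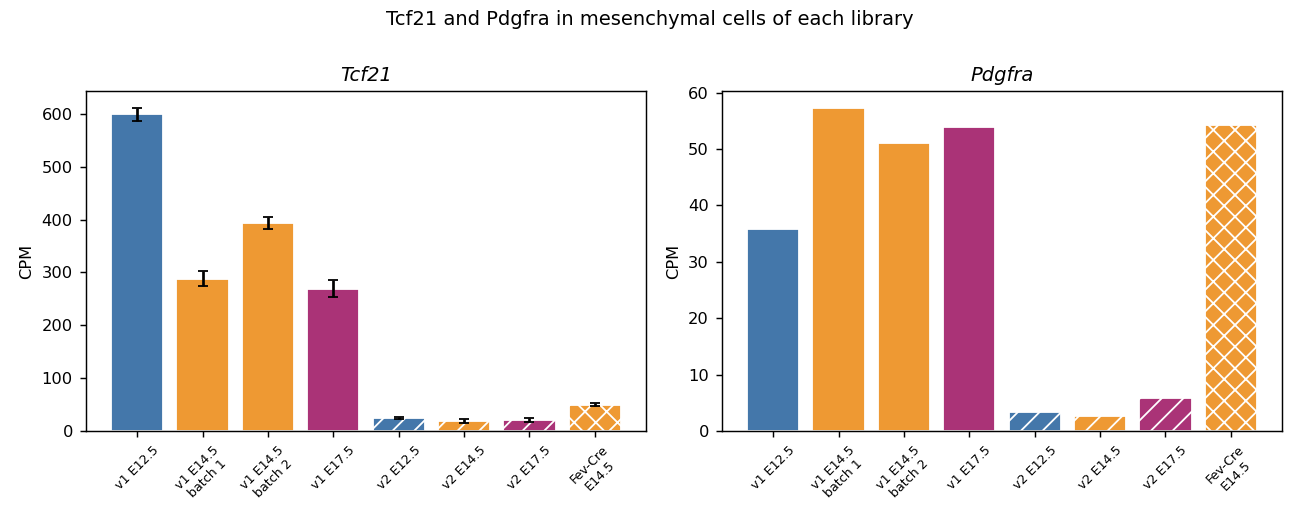
*Tcf21* (left) and *Pdgfra* (right) in mesenchymal cells of each library, as CPM of summed UMIs; colours mark the stage, hatching the CD140a-depleted v2 libraries and cross-hatching the *Fev-Cre* library, and error bars on *Tcf21* are exact Poisson 95% intervals. *Tcf21* is at 269 CPM or more in the 4 v1 libraries and at 49.4 or less in the 4 v2-kit libraries, whereas *Pdgfra* in the *Fev-Cre* library is at 54.3 CPM, within the v1 range.

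*Meis1* and *Meis2* were found broadly. *Meis1* in mesenchymal cells ran from 60.3 CPM in v1 E17.5 to 175 in v1 E14.5 batch 1 (median 147), and in mesothelial cells from 52.8 to 175 (median 151), with both extremes in the same 2 libraries. *Meis2* ran from 83.0 CPM in v1 E17.5 to 375 in the *Fev-Cre* library in mesenchymal cells (median 179) and from 84.4 to 462 in the same 2 libraries in mesothelial cells (median 210). Within a library the mesothelial level of *Meis1* lay within a log2 ratio of -0.17 to 0.30 of the mesenchymal level, and that of *Meis2* within -0.16 to 0.32. Outside these classes the 2 genes parted: neural cells had a median of 84.6 CPM of *Meis1* and 2.33 of *Meis2*, and epithelial cells a median of 33.5 CPM of *Meis1* and 170 of *Meis2*.

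*Wt1* in mesothelial cells was at 371 CPM in v1 E12.5, 539 and 489 in the v1 E14.5 batches, 470 in v1 E17.5, 198, 270 and 208 in the v2 libraries by stage, and 322 in the *Fev-Cre* library. Mesenchymal cells held 94.6, 91.2, 116, 67.9, 85.4, 129, 13.9 and 51.6 CPM in the same order, so the 2 ranges did not overlap. The v2 E17.5 library sums 2 wells that held different cells of the same pancreata. They gave 149 and 269 CPM of *Wt1* in mesothelial and 8.32 and 19.5 in mesenchymal cells, and 51.9 and 81.2 CPM of *Barx1* in mesothelial cells. *Wt1* was found in 35.9% to 67.6% of mesothelial and 2.82% to 25.3% of mesenchymal cells at 2000 UMIs. Without thinning the shares were 78.7% to 91.7% and 9.33% to 48.7%. The class border touches this value: the 1239 mesenchymal cells with 1 *Upk3b* UMI had a median over libraries of 234 CPM of *Wt1*, against 72.7 in the 15208 mesenchymal cells with none and 277 in the 1127 mesothelial cells with exactly 2.

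**Figure D2:**
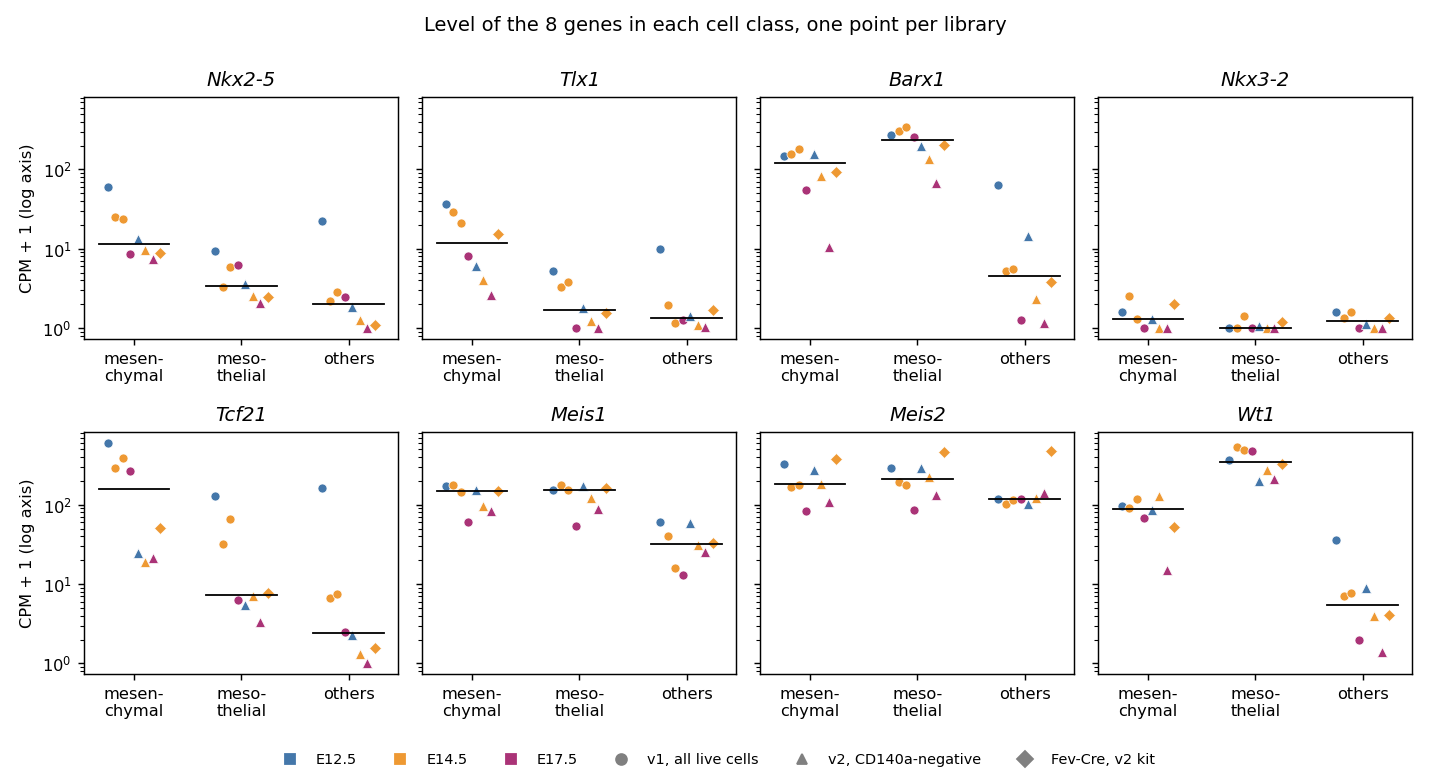
Level of each of the 8 genes as CPM plus 1 on a log axis, in mesenchymal, mesothelial and other cells, 1 point per library and a line at the median. *Wt1* and *Barx1* sit higher in mesothelial cells, *Nkx2-5*, *Tlx1* and *Tcf21* higher in mesenchymal cells, and *Meis1* and *Meis2* at about the same level in both.

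The comparison of mesothelial with mesenchymal cells asked which of these factors separate the surface layer from the tissue beneath it. UMIs were summed per library and class and tested over all genes with edgeR's quasi-likelihood test with the library as a block, and a gene was called at a Benjamini-Hochberg adjusted p below 0.05 and at least a 2-fold change. Of the 7 tested members 5 were called, 2 higher and 3 lower in mesothelial cells, where 10.3% of all 11974 genes tested were called. *Wt1* was 4.64-fold higher in mesothelial cells (log2 fold change 2.21 ± 0.27 SE, adjusted p 0.000242) and *Barx1* 2.23-fold higher (1.16 ± 0.23, adjusted p 0.00368), both in 8 of 8 libraries. *Tlx1* was 10.8-fold lower (-3.44 ± 0.33, adjusted p 6.75e-05) and *Tcf21* 6.34-fold lower (-2.66 ± 0.21, adjusted p 3.02e-05). *Tcf21* was lower in 8 of 8 libraries and *Tlx1* in the 7 libraries where depth allowed a direction, since the count of 0 in v1 E17.5 allows a level above the mesenchymal one. *Nkx2-5* was 5.37-fold lower (-2.42 ± 0.16, adjusted p 1.65e-05), its CPM being lower in 8 of 8 libraries, in v1 E17.5 on 1 UMI.

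*Meis1* (log2 fold change 0.05 ± 0.07, adjusted p 0.659) and *Meis2* (0.13 ± 0.08, adjusted p 0.252) did not pass, and leaving out mixed cells turned the value of *Meis1* to -0.11. With no library block *Tcf21* was at -2.81 (adjusted p 0.0648) and *Barx1* at 0.99 (adjusted p 0.141), and both lost their calls. In the 4 v2-kit libraries alone *Wt1* kept its size at 2.16 but not its call (adjusted p 0.0772), likewise *Barx1* at 1.20 (adjusted p 0.140), with 256 genes called in that fit of 4 libraries. Without v2 E17.5 *Barx1* was at 0.95, just under 2-fold. With the mesenchymal cells of 1 *Upk3b* UMI left out, an alternative chosen after the data were seen, the 5 calls stood and *Wt1* was at 2.43.

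Of the 9 other TALE genes and partners tested, 2 were lower in mesothelial cells, *Meis3* at a log2 fold change of -1.61 and *Pknox2* at -1.86, and 1 was higher, *Pbx4* at 1.40. The median over the list was -0.11, and over all genes tested -0.05. Of 9 genes linked to the spleen field 6 were tested: *Fgf9*, a growth factor ligand, was higher at 3.27, and *Nkx2-3*, a homeobox gene of spleen and gut mesenchyme, was lower at -2.15. Of 16 tested regulators of stomach and gut mesenchyme 5 were higher, among them *Foxf1* (2.16), *Gata6* (1.49), *Gata4* (1.36) and *Nr2f1* (1.32). Another 5 of them were lower, *Prrx1* (-4.45), *Osr2* (-3.89), *Tbx3* (-3.26), *Nkx2-3* (-2.15) and *Hand1* (-1.67), with a median of 0.35 over the 16.

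The comparison of mesenchymal cells with the 36037 cells of neither class asked how far each factor set the mesenchyme apart from epithelial, endothelial, immune, neural, erythroid and unplaced cells. Mesothelial cells did not enter it. Of the 7 tested members 6 were called, all higher in mesenchymal cells, where 23.8% of 13331 genes tested were called in either direction. The log2 fold changes were 5.41 ± 0.77 SE for *Tcf21*, 4.57 ± 0.64 for *Barx1*, 4.08 ± 0.50 for *Tlx1*, 4.0 ± 0.76 for *Nkx2-5*, 3.89 ± 0.51 for *Wt1* and 1.79 ± 0.21 for *Meis1*, with adjusted p from edgeR's test between 0.00035 and 0.00218. Each of these was higher in mesenchymal cells in 8 of 8 libraries. With no library block *Nkx2-5* fell to 2.03 and *Tcf21* to 2.67, and both lost their calls. *Meis2* was at 0.22 ± 0.23 (adjusted p 0.451) and higher in 5 of 8 libraries, and its level in other cells ran from 101 to 480 CPM. Mesothelial and smooth muscle genes moved in the same comparison, *Bnc1* (2.68), *Lrrn4* (2.62), *Upk1b* (1.80), *Acta2* (4.11), *Tagln* (3.51) and *Myl9* (3.12) being higher in mesenchymal cells and *Krt8* (-2.85), *Krt18* (-2.35) and *Krt19* (-1.25) lower, and their part in the folds of the members was not tested.

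The other cells included low-collagen cells that were left unplaced because they met no marker rule or the rules of more than 1 type. In v1 E12.5 these unplaced cells held 562 CPM of *Tcf21*, 212 of *Barx1* and 75.2 of *Nkx2-5*, which is at or near the mesenchymal level of that library. Without the unplaced cells, an alternative chosen after the data were seen, the fold changes of the 6 called members were larger, 6.67 for *Tcf21*, 6.21 for *Nkx2-5* and 2.01 for *Meis1*, and *Meis2* was at 0.39 (adjusted p 0.354). At the collagen border, cells with exactly 2 collagen UMIs had a median of 7.50 CPM of *Nkx2-5* and 11.3 of *Barx1* over 8 libraries, cells with exactly 3 had 17.9 and 85.4 over 7 libraries, and cells with 10 or more had 8.66 and 117 over 8. Of the 16 tested stomach and gut mesenchyme regulators 13 were higher and *Gata4* was lower (-1.37), with a median of 3.76. Of the 9 TALE partners *Pknox2* (3.17) and *Meis3* (1.15) were higher, and of 8 tested spleen field genes *Cxcl13* (5.11), *Nr2f2* (3.87) and *Nkx2-3* (3.18) were higher and *Sox9* (-2.35) was lower. The median over all genes tested was 0.01.

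The stage comparisons asked how the factors changed in mesenchymal cells from E12.5 to E17.5, over the 7 Swiss Webster libraries with the kit as a term. Between E12.5 and E17.5, 3 of 7 tested members were called, all lower at E17.5, where 6.97% of 13085 genes were called. *Barx1* fell 5.28-fold (log2 fold change -2.40 ± 0.58 SE, adjusted p 0.0467), *Tlx1* 3.46-fold (-1.79 ± 0.36, adjusted p 0.0223) and *Meis2* 2.72-fold (-1.44 ± 0.28, adjusted p 0.0208). The fall of *Barx1* was unlike in size between the kits. Its log2 CPM, with 0.5 UMI added to each sum, went from 7.19 to 5.77 in v1. In the v2 libraries, whose mesenchymal cells are those that the CD140a sort left behind, it went from 7.27 to 3.25. *Nkx2-5* was at -1.72 ± 0.45 (adjusted p 0.059), *Wt1* at -1.03 ± 0.63 (adjusted p 0.414), *Meis1* at -0.96 ± 0.29 (adjusted p 0.0919) and *Tcf21* at -0.50 ± 0.33 (adjusted p 0.468).

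**Figure D3:**
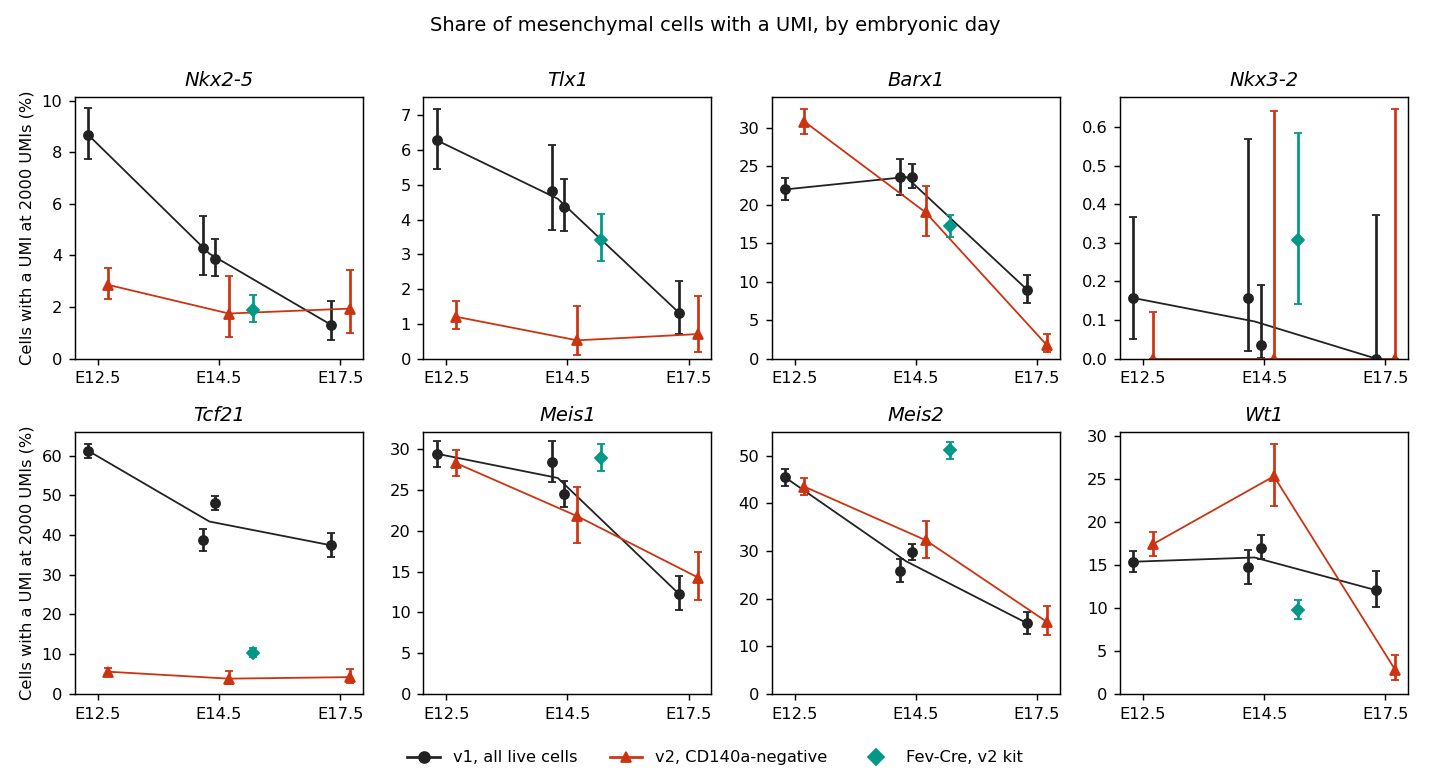
Share of mesenchymal cells with at least 1 UMI of each gene, after thinning each cell to 2000 UMIs, by stage and library; error bars are exact binomial 95% intervals that cover counting error only. The shares of *Nkx2-5* and *Tlx1* are highest in v1 E12.5 (8.67% and 6.29%), and *Barx1* is lowest in v2 E17.5 (1.76%).

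These stage calls were lost when single libraries were left out, while each value stayed below 0. *Tlx1* lost its call without any one of v1 E12.5 (adjusted p 0.195), v1 E14.5 batch 2 (0.0519), v1 E17.5 (0.183), v2 E12.5 (0.0857) and v2 E17.5 (0.0524). *Barx1* lost it without v1 E14.5 batch 2 (0.0705), v2 E12.5 (0.192), v2 E14.5 (0.104) or v2 E17.5 (0.164), and *Meis2* without v1 E12.5 (0.183), v1 E17.5 (0.130), v2 E12.5 (0.0596) or v2 E17.5 (0.0872). In these fits *Tlx1* was at -2.03 to -1.53, *Barx1* at -2.47 to -1.45 and *Meis2* at -1.68 to -1.22, and where a stage was left with 1 library it is assumed to vary like the others. All 3 calls were also lost with no kit term (*Tlx1* -1.96, *Barx1* -2.03, *Meis2* -1.42), those of *Tlx1* (-1.70) and *Barx1* (-2.20) with at least 10 collagen UMIs, and those of *Tlx1* (-1.82) and *Meis2* (-1.50) with the *Fev-Cre* library included. *Nkx2-5* in turn was called without v1 E14.5 batch 1, v2 E12.5 or v2 E17.5 and in 3 other settings, among them DESeq2 (-1.72, adjusted p 0.00849), and *Wt1* without v1 E17.5 (-2.68, adjusted p 0.0156). Within each kit every tested member was lower at E17.5 than at E12.5, those without a call included, so this direction does not set the called members apart.

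The make-up of the mesenchymal cells moved with stage. All 5 smooth muscle genes tested (*Acta2*, *Tagln*, *Myl9*, *Cnn1* and *Myh11*) were higher at E17.5 than at E12.5, with a median log2 fold change of 4.20, and their summed level in mesenchymal cells ran from 235 to 5518 CPM over libraries. Of 6 tested mesothelial genes 2 were lower, with a list median of -1.10. The part of either in the fall of *Barx1*, *Tlx1* and *Meis2* was not tested. Of the 16 tested gut mesenchyme regulators 4 were lower at E17.5, among them *Sfrp1* (-1.76), *Nr2f1* (-1.66) and *Isl1* (-1.22), and 2 were higher, *Osr2* (2.96) and *Prrx1* (1.74), with a median of -0.39. Of 9 TALE partners *Pbx3* was lower (-1.50), with a median of -0.67. Of 8 tested spleen field genes *Fgf9* was lower (-5.29) and *Cdkn2b* (5.02) and *Cxcl13* (1.99) were higher. Over all 13085 genes 708 were higher and 204 lower, with a median of -0.01.

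Neither of the single steps gave a call for a member by edgeR over all 7 libraries with the filter on low counts. Without that filter *Barx1* was called between E14.5 and E17.5 (-1.93). Between E12.5 and E14.5, 0.260% of 13085 genes were called and 0 of 7 members by edgeR or DESeq2. At an unadjusted p under 0.05 by edgeR were 1317 of 13085 genes and 2 of 7 members, *Meis2* (-0.76) and *Nkx2-5* (-0.99). Between E14.5 and E17.5, 2.12% of genes were called and 0 of 7 members by edgeR. At an unadjusted p under 0.05 were 1920 of 13085 genes and 4 of 7 members, *Barx1* (-1.91), *Tlx1* (-1.19), *Meis2* (-0.68) and *Meis1* (-0.66). DESeq2 called 1 of them, *Barx1* at -1.90 (adjusted p 0.0103). Without v1 E17.5 the edgeR test called *Barx1* (-3.37) and *Wt1* (-3.0), and in that fit v2 E17.5 alone stands for its stage and is assumed to vary like the others. Between these stages 4 of 6 tested mesothelial genes were lower in mesenchymal cells, *Bnc1* (-5.08), *Lrrn4* (-3.68), *Upk1b* (-3.36) and *Krt19* (-1.81), and 4 of 5 smooth muscle genes were higher, and their part in the values of *Barx1* and *Wt1* was not tested.

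In mesothelial cells, 2 of 6 tested members were called between E12.5 and E17.5, both lower at E17.5, where 16.0% of 11650 genes were called. *Meis2* fell 2.41-fold (log2 fold change -1.27 ± 0.30 SE, adjusted p 0.00536) and *Tcf21* 3.38-fold (-1.76 ± 0.56, adjusted p 0.0368), the latter from at most 130 CPM. At 2000 UMIs *Tcf21* was held by 13.0% of mesothelial cells in v1 E12.5, against 1.75% of epithelial and 0% of endothelial cells, and by 0.712% in v2 E12.5, against 0.478% of immune cells. Among mesenchymal cells of the same 2 libraries it was held by 1947 of 3182 and 172 of 3075. The part of free RNA in the mesothelial shares was not tested. At E17.5 *Tcf21* was held by 0% and 0.298% of mesothelial cells in v1 and v2, and the v1 E17.5 level rests on 1 UMI. The cell types set beside the mesothelial shares above differ between the 2 E12.5 libraries, so those shares give no like comparison. In v1 E12.5 the log2 CPM of *Tcf21*, with 0.5 UMI added to each sum, was 7.35 in other cells and 7.03 in mesothelial cells. In v2 E12.5 the same values were 0.40 and 2.14. *Meis1* was at -0.95 ± 0.30 (adjusted p 0.038), below 2-fold, and was called with mixed cells left out or with at least 4 *Upk3b* UMIs (both -1.03). *Barx1* was at -0.75 ± 0.34 (adjusted p 0.147), *Wt1* at 0.33 ± 0.29 (adjusted p 0.496) and *Nkx2-5* at -1.07 ± 0.71 (adjusted p 0.355), and *Tlx1* did not pass the filter on low counts. Both calls were lost without v1 E12.5, without v1 E17.5 or without v2 E17.5, with *Tcf21* then at -0.95, -1.23 and -4.07 and *Meis2* at -1.09, -1.06 and -1.54, and v2 E14.5 was also needed for *Tcf21* (-1.50, adjusted p 0.0716). *Tcf21* also lost its call with at least 4 *Upk3b* UMIs (-1.77), by DESeq2 (-2.13), with the *Fev-Cre* library included (-1.89) and with no kit term (-4.21), and *Meis2* lost it with no kit term (-1.22). Without v1 E12.5 *Barx1* was called instead, at -1.22 (adjusted p 0.0347), in a fit where v2 E12.5 alone stands for its stage and is assumed to vary like the others.

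Of the 15 tested gut mesenchyme regulators 7 were lower in E17.5 mesothelial cells, among them *Nr2f1* (-3.10), *Sfrp1* (-2.93) and *Prrx1* (-2.48). Another 4 were higher, *Osr1* (3.12), *Sfrp2* (2.92), *Gata5* (1.99) and *Gata6* (1.05), and the median was -0.72. Of the 9 TALE partners *Pbx3* (-1.84) and *Tgif1* (-1.20) were lower. The median over all genes tested was -0.13. Of the 7 check genes of mesenchyme 6, and of the 7 of mesothelium 5, were also higher at E17.5 in these cells. Of 4 tested smooth muscle genes *Acta2* (3.68) and *Cnn1* (3.30) were higher. The part of these genes in the result was not tested. Of 6 tested spleen field genes *Cxcl13* (1.33) was higher and *Nkx2-3* (-1.38), *Fgf9* (-1.26) and *Nr2f2* (-1.06) were lower.

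Which of the factors shared a cell was read from mesenchymal cells at equal depth, separately in each library. For each pair the number of cells holding both genes was divided by the number expected if the genes were found independently, and the log2 of this ratio (with 0.5 added to both numbers) was kept for libraries in which at least 5 cells were expected. Cells of 1 library are not replicates, so these ratios carry no p-value.

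*Tlx1* and *Barx1* were the pair found together least. In v1 E12.5, 23 cells held both against 44.0 expected, in the v1 E14.5 batches 8 against 14.4 and 18 against 30.3, in v2 E12.5 6 against 11.4 and in the *Fev-Cre* library 7 against 17.2. All 5 libraries were below 1, with log2 ratios from -1.24 to -0.74 (median -0.87). Seen from the cell, *Barx1* was found in 11.5% of *Tlx1*-positive cells (95% exact binomial interval 7.43% to 16.8%, 23 of 200 cells) and in 22.7% of *Tlx1*-negative cells of v1 E12.5. The same shares were 13.1% (5.84% to 24.2%, 8 of 61) and 24.1% in v1 E14.5 batch 1, 14.1% (8.55% to 21.3%, 18 of 128) and 24.1% in batch 2, 16.2% (6.19% to 32.0%, 6 of 37) and 31.0% in v2 E12.5, and 7.0% (2.86% to 13.9%, 7 of 100) and 17.6% in the *Fev-Cre* library. In v1 E14.5 batch 1 and v2 E12.5 the interval reached past the share of *Tlx1*-negative cells, and in the other 3 it did not. These intervals cover counting error among cells of 1 library only and are no test between pools. The remaining 3 libraries had too few *Tlx1* cells to count, and in v2 E17.5 1 of 4 held *Barx1*. The genes were found together less often than expected, though each of the 5 libraries counted had cells with both. How many of those were doublets or held free RNA was not tested. The size moved with the depth kept, from -1.12 at 1000 UMIs to -0.39 at 3000 UMIs, always below 0.

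*Nkx2-5* and *Tlx1* were the pair found together most. The share of cells with *Tlx1* among those with *Nkx2-5* was 13.0% in v1 E12.5 (9.31% to 17.6%, 36 of 276 cells), 31.5% in v1 E14.5 batch 1 (19.5% to 45.6%, 17 of 54), 15.0% in batch 2 (9.01% to 23.0%, 17 of 113), 5.68% in v2 E12.5 (1.87% to 12.8%, 5 of 88) and 14.55% in the *Fev-Cre* library (6.50% to 26.7%, 8 of 55). Among cells without *Nkx2-5* the shares were 5.64%, 3.64%, 3.94%, 1.07% and 3.21%. The intervals cover counting error among cells of 1 library only and are no test between pools. These 5 libraries are those with at least 5 cells holding both genes. In the libraries not listed, *Tlx1* was held by 1 of 13 *Nkx2-5* cells in v1 E17.5, 1 of 11 in v2 E17.5 and 0 of 10 in v2 E14.5. Only v1 E12.5 reached 5 expected cells, with 36 observed against 17.3 expected (log2 ratio 1.03). Counting libraries with 5 expected or 5 observed cells, a rule chosen after the data were seen that favours higher ratios, gave a median of 1.82 over 5 libraries. Most cells with either gene held only 1 of them at this depth: of 1081 cells with *Nkx2-5* or *Tlx1*, 85 held both.

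*Nkx2-5* and *Barx1* were below the expected number in 4 of 5 libraries, with a median log2 ratio of -0.28 and a range from -0.82 in v1 E14.5 batch 1 to 0.21 in the *Fev-Cre* library. The median changed sign at 3000 UMIs (0.27) and with at least 10 collagen UMIs (0.12), so no direction is read from it. Over all 15497 mesenchymal cells at 2000 UMIs, 3349 held *Barx1*, 173 held *Barx1* with *Nkx2-5* or *Tlx1*, 5 held all 3 genes and 11240 held none of them. In mesothelial cells *Nkx2-5* and *Tlx1* were nearly missing: of 5489 cells 29 held *Nkx2-5* or *Tlx1*, of which 15 also held *Barx1*, and 1547 held *Barx1*.

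**Figure D4:**
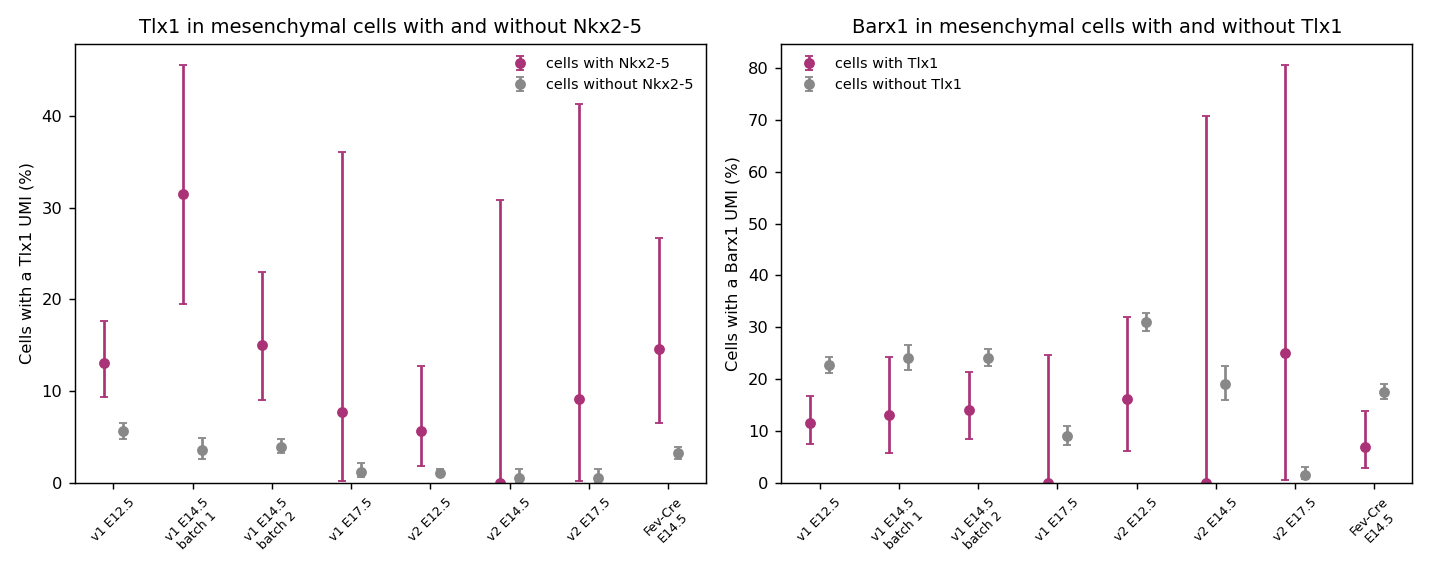
Share of mesenchymal cells that hold a second gene among cells with the first gene and among cells without it, by library, at 2000 UMIs per cell with exact binomial 95% intervals. The intervals cover counting error only. Left, *Tlx1* by *Nkx2-5*; right, *Barx1* by *Tlx1*. *Tlx1* is found in 13.0% of cells with *Nkx2-5* and 5.64% of cells without it in v1 E12.5, and *Barx1* in 11.5% of cells with *Tlx1* and 22.7% of cells without it.

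*Nkx2-5* shared cells with *Wt1* more often than expected in 4 of 5 libraries (median log2 ratio 0.70). *Wt1* was found in 23.9% of *Nkx2-5*-positive and 14.6% of *Nkx2-5*-negative cells in v1 E12.5, in 29.6% and 14.0% in v1 E14.5 batch 1, in 28.3% and 16.6% in batch 2 and in 16.4% and 9.63% in the *Fev-Cre* library. In v2 E12.5 the order was turned, with 10.2% and 17.6% (log2 ratio -0.73). *Nkx2-5* and *Tcf21* were above the expected number in 4 of 4 libraries (median 0.57), which held in a smaller size with at least 10 collagen UMIs (0.15). *Tlx1* had a median of 0.11 with *Tcf21* (3 of 4 libraries above) and of 0.08 with *Wt1* (3 of 5). With *Wt1* it ran from -1.47 in v2 E12.5 (2 cells against 6.44 expected) to 0.48 in v1 E12.5. Among the libraries counted for *Wt1* with *Nkx2-5* or *Tlx1*, only v2 E12.5 was CD140a-depleted.

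*Barx1* was found with *Meis2* more often than expected in 7 of 7 libraries (median log2 ratio 0.21), with *Tcf21* in 6 of 6 (0.13), with *Meis1* in 6 of 7 (0.19) and with *Wt1* in 6 of 7 (0.35). Mesenchymal cells with 1 *Upk3b* UMI held more of both *Wt1* (given above) and *Barx1* (181 against 115 CPM) than those with none, and the part of these border cells in the pair was not tested. *Tcf21* and *Meis2* were above in 7 of 7 (0.13), *Meis2* and *Wt1* in 7 of 7 (0.19), *Tcf21* and *Meis1* in 5 of 6 (0.17) and *Meis1* and *Wt1* in 6 of 7 (0.18). *Meis1* and *Meis2*, the 2 paralogues, were near independence at 0.05 (6 of 8 libraries above). The highest of these medians, 0.35, is a ratio of 1.27. *Tcf21* and *Wt1* had no common direction, from -0.80 in v2 E12.5 to 0.50 in the *Fev-Cre* library (median -0.12, 2 of 7 above).

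**Figure D5:**
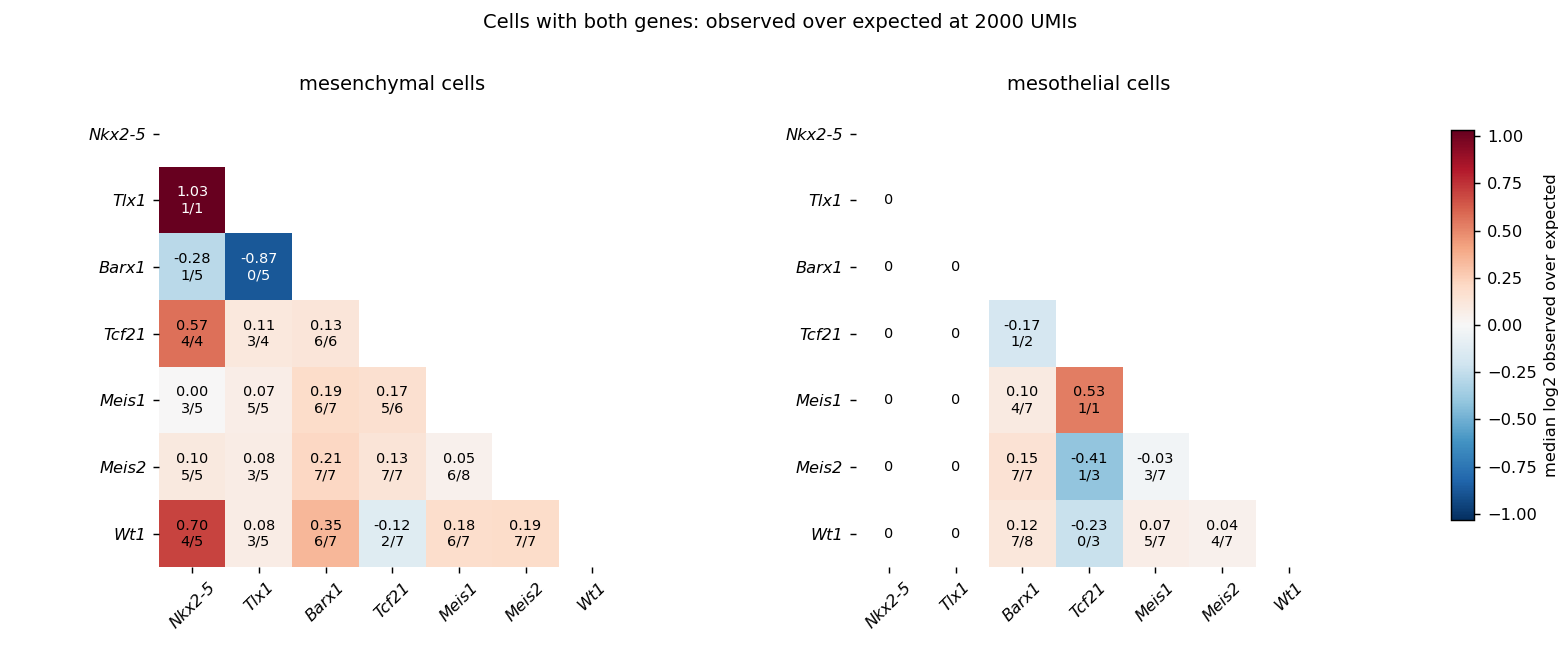
Median over libraries of the log2 ratio of observed to expected cells holding both genes of a pair at 2000 UMIs per cell, in mesenchymal (left) and mesothelial (right) cells; the second line of each tile gives the libraries above 0 over those with at least 5 expected cells, and a lone 0 marks a pair with no such library. *Tlx1* with *Barx1* is the lowest tile of the mesenchymal cells at -0.87, *Nkx2-5* with *Tlx1* the highest at 1.03, from 1 library.

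In mesothelial cells, *Barx1* and *Wt1* were above the expected number in 7 of 8 libraries with a median log2 ratio of 0.12, and *Tcf21* and *Wt1* were below it in 3 of 3 (median -0.23). *Wt1* was found in 27.8% of *Tcf21*-positive mesothelial cells (9.69% to 53.5%, 5 of 18) and 55.0% of *Tcf21*-negative ones in v1 E12.5, and in 51.3% and 61.2% in v1 E14.5 batch 2. In v2 E12.5 the shares were nearly equal, at 35.7% and 35.9% (log2 ratio -0.0072). *Barx1* and *Meis2* had a median of 0.15 (7 of 7 above), which another random thinning turned to -0.044. The pairs of *Meis1* with *Meis2* (-0.03), *Meis1* with *Wt1* (0.07), *Meis2* with *Wt1* (0.04) and *Barx1* with *Meis1* (0.10) were near 0.

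The genes most like each member across mesenchymal cells were ranked by the mean over libraries of Pearson's r of log-transformed thinned UMIs, among 7621 genes found in at least 1% of cells of all 8 libraries (8211 genes in 6 libraries for *Tlx1*). These correlations across cells of shared libraries are descriptions, and all were weak. *Kazald1* led the lists of both *Nkx2-5* (mean r 0.19) and *Tlx1* (0.16), and *Nkx2-5* itself was the third gene for *Tlx1* (0.12), after *Slc40a1* (0.16). *Tgfbi* and *Ntm* followed for *Nkx2-5* (both 0.10). *Barx1* was most like *Sfrp2*, *Ldhb* and *Kcnj8* (each 0.12), *Tcf21* most like *Mfap2* (0.11), *Ptn* (0.10) and *Mfap4* (0.10), and *Wt1* most like *Cav1* (0.21), *Igfbp5* (0.19) and *Slc9a3r1* (0.16). *Barx1* (0.09), *Isl1* (0.09) and *Malat1* (0.08) led for *Meis2*, and *Ptn* (0.09), *Tsc22d1* (0.07) and *Meg3* (0.07) for *Meis1*. At the other end *Dlk1* had the lowest mean r for both *Nkx2-5* (-0.16) and *Tlx1* (-0.11).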

How the data were processed

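Droplet libraries of dissociated mouse embryonic pancreata were made with 10x v1 and v2 kits. Per the labels and methods, the authors deposited UMI counts per gene and barcode from Cell Ranger (versions 1.1 and 2.1 are named in the submitters' processing notes, with mm10); free RNA was not removed. For the *Fev-Cre* library the matrix aligned with reporter sequences was used, and the 2 v2 E17.5 wells, which are technical repeats, were summed as 1 library. Barcodes with at least 200 genes were kept. No doublet caller was run, and cells were sorted for single events before capture. Mesenchymal or mesothelial cells that also met an epithelial, endothelial, immune or neural rule are counted as mixed. CPM are the UMIs of a gene in all cells of 1 class in 1 library, per 1000000 UMIs of the same cells. Sums of at least 20 cells were tested with edgeR 4.0.16 in R 4.3.3 (TMM, filterByExpr, quasi-likelihood, library or kit as a term), with DESeq2 1.42.0 as an alternative. Cells were thinned without replacement in Python 3.11.15 with numpy 2.4.6. Intervals are exact, two-sided and 95%, the limit for a count of 0 is that of 3 UMIs, a one-sided limit, and both cover counting error only. The fit and the pair counts were tested on simulated data. The members, gene lists and tests were chosen with earlier results of these data known. Named genes are the members, the called genes of the fixed lists (1 is not reported here) and the 3 genes most like each member; the lowest of that ranking for *Nkx2-5* and *Tlx1* was added after its values were seen. Alternatives covered the test, filters, class thresholds, kit, depth and each library left out.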

Additional observations from a re-analysis of the deposited data

Results flagged for a closer look

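With 0.5 UMI added to each sum, the ratios of mesothelial to mesenchymal level of *Nkx2-5* and *Tcf21* stood apart in v1 E17.5, which had only 47 mesothelial cells. For *Nkx2-5* this library had the highest of 8 log2 ratios, 0.022, against a median of -2.35, from 1 UMI in mesothelial and 29 in mesenchymal cells. Its sign comes from the added 0.5, since the levels without it were 5.28 and 7.66 CPM. For *Tcf21* it had the lowest, -5.09, from 1 and 1018 UMIs. For *Meis1* the log2 ratio of mesenchymal to other cells was highest in v1 E14.5 batch 2, at 3.27 (1888 and 103 UMIs). In all 3 cases the gap to the nearest library was large against the range of the 8, by Dixon's criterion. Of 14 such groups tested, chance flags about 1 in 20.

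The log2 ratio of mesothelial to mesenchymal level of *Meis1* differed between the kits. Its mean was -0.05 in the 4 v1 libraries and 0.16 in the 4 v2-kit libraries, a difference of -0.21 by an exact two-sided permutation test (p 0.0286, the smallest that 4 against 4 can give, unadjusted over 14 tests). *Meis1* passed no threshold between the 2 classes in any of the fits.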

How the results depend on the processing

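The labels give a batch number to the v1 pools, which ties E12.5, E14.5 batch 2 and E17.5. With this batch as a replicate block, added after the data were seen, the 4 stage comparisons kept their counts of members called (0, 0, 3 and 2), and no member gained or lost a call. Batch 1 held 1 stage, so this block leaves it no weight in a stage difference. The v2 pools carry no such number, and the CD140a-depleted pools of the 3 stages were each made on a different day. Of 683 alternative values of single members over the 6 comparisons, 618 kept their direction and side of the threshold, 39 lost a call, 14 gained one and the rest changed sign; of 402 alternative pair medians 387 stayed within the spread between libraries; all 16 median levels did so when single-cell CPM were averaged. Over the alternatives, genes called ran from 256 to 1873 (reported 1230) between mesothelial and mesenchymal cells, 2714 to 4756 (3171) between mesenchymal and other cells, 0 to 354 (34), 0 to 658 (278) and 91 to 1409 (912) for E12.5 to E14.5, E14.5 to E17.5 and E12.5 to E17.5 in mesenchymal cells, and 373 to 2719 (1859) in mesothelial cells. Between mesenchymal and other cells *Nkx2-5* (2.03) and *Tcf21* (2.67) lost their calls with no library block. Mesothelial against mesenchymal cells, members called fell from 5 to 3 with no library block (*Barx1*, *Tcf21* lost) and to 3 with the v2-kit libraries only. Between E14.5 and E17.5 mesenchymal cells the count of 0 became 1 with DESeq2 and 1 with no filter on low counts, and 0 to 2 with a library left out. Between E12.5 and E17.5 the count of 3 became 1 with 10 collagen UMIs, 1 with the *Fev-Cre* library included, 0 with no kit term and 1 to 4 with a library left out, and in mesothelial cells the count of 2 became 1 with DESeq2, 1 with the *Fev-Cre* library, 0 with no kit term and 0 to 2 with a library left out. Among single members, 12 values changed sign, none of them a call. These were *Meis1* mesothelial against mesenchymal at -0.11 without mixed cells, -0.0088 with 10 collagen UMIs and -0.060 in v1 alone, and *Meis2* at -0.013 in v1 alone. Between E12.5 and E14.5 *Barx1* ran from -1.27 to 0.40 with a library left out (highest without v2 E12.5) and *Wt1* from -0.57 to 0.54 (lowest without v2 E14.5). Between E14.5 and E17.5 *Nkx2-5* was at 0.22 with 10 collagen UMIs, and *Tcf21* at -0.28 with the *Fev-Cre* library, -0.35 with no kit term, -0.030 with the batch as a replicate block and -0.070 to 0.38 with a library left out (below 0 without v1 E14.5 batch 1 or v2 E17.5). Pair medians (log2) moved for *Nkx2-5* with *Tlx1* to 1.82 when 5 observed cells also counted, a rule added after the data were seen; for *Nkx2-5* with *Barx1* to 0.27 at 3000 UMIs and 0.12 with 10 collagen UMIs; for *Nkx2-5* with *Tcf21* to 0.15 and with *Meis2* to -0.29 with 10 collagen UMIs, and with *Meis2* to 0.35 at 1000 UMIs; for *Tlx1* with *Barx1* to -1.12 at 1000 UMIs, -0.39 at 3000 UMIs and -1.25 with another seed; for *Tlx1* with *Meis1* to 0.45 and with *Meis2* to -0.66 at 1000 UMIs, the latter to -0.17 with 10 collagen UMIs; and in mesothelial cells for *Barx1* with *Meis2* to 0.022 at 3000 UMIs and -0.044 with another seed, and for *Meis2* with *Wt1* to -0.048 at 1000 UMIs. The causes were not tested. At 2000 UMIs *Nkx3-2* and most pairs with *Nkx2-5* or *Tlx1* at E17.5 are below what the cell numbers can resolve.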
